A study of Mus musculus with 9 samples.

Results

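Axon guidance ligands and receptors were followed in retinal ganglion cells (RGCs), the neurons whose axons form the optic nerve. Members were the gene symbols of the Eph receptors and ephrins, the semaphorins with their plexin and neuropilin receptors, the Slits with their Robo receptors, and the netrins with Dcc and the Unc5 receptors. Matched by gene symbol, they numbered 70 of the 23997 gene symbols listed, and included 1 antisense transcript, Plxna4os1. RNA sequencing covered RGCs of C57BL/6J mice, aged 8 weeks by the labels, 2 weeks after an injection into the eye. Control eyes received saline and kept their intraocular pressure (IOP), whereas microbeads raised IOP in the Mild IOP group and further in the Moderate IOP group. Retinas numbered 12 for Control, 12 for Mild IOP and 6 for Moderate IOP, and their RGCs had been isolated by immunopanning, in which coated dishes first remove other cells with a lectin and antibodies and an antibody then retains Thy1.2-positive cells. RNA was pooled by group and split into 3 technical replicates, so the 9 libraries came from 3 pools. P-values here therefore covered the spread between splits of a pool and not between animals.

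Guidance molecules steer growing axons by attraction or repulsion at the growth cone, and in the developing visual system they decide where RGC axons leave the eye, cross at the chiasm and end in the brain. Ephrins are membrane-bound ligands of the Eph receptor tyrosine kinases, and opposing gradients of both lay out the retinal map in the superior colliculus. Slits repel axons through Robo receptors, class 3 semaphorins signal through neuropilins and plexins, and netrin-1 acts through Dcc and the Unc5 receptors. Many of these genes remain expressed in adult neurons, where they take part in synapse maintenance and in the response to injury.

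Expression was measured as FPKM (fragments per kilobase of transcript, relative to the mapped fragments of the library), divided here by a scaling factor for each library. FPKM is a level per transcript length, so levels can be compared between genes. Group levels are written as mean ± SD of scaled FPKM over 3 technical replicates. The depth derived from the interval of each estimate was 7120000, 8910000 and 5080000 fragments in the Control libraries, 6810000, 6620000 and 5390000 with Mild IOP, and 5050000, 8640000 and 5980000 with Moderate IOP. Of the 70 members, 56 were above 0 in every library. Epha1, Robo3, Sema3c and Ntn5 were listed at 0 in all 9 libraries. A mean scaled FPKM of at least 0.5 over all libraries was required for a test, and 55 members passed. The other 15 never exceeded 1.07 scaled FPKM in any library.

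The family was expressed at low to middling levels. The median tested member had a mean level of 3.3 scaled FPKM, against 8.55 for all 13043 genes tested, and 9 members reached a mean of 10 or more. Summed over the family, levels were 336.5, 342.8 and 320.2 scaled FPKM in the Control libraries. Mild IOP libraries held 335.6, 370.9 and 318.8, and Moderate IOP libraries held 338.4, 271.4 and 282.3. The sums of the 3 groups overlapped. The 5 most abundant members held 33.6% of the summed level.

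Receptors of the EphA class, which bind ephrin-A ligands, held 19.9% of the family sum, mostly as Epha8. Its level was 35.5, 43.7 and 33.7 scaled FPKM in Control, 33.4, 35.6 and 33.6 with Mild IOP, and 42.7, 22.0 and 25.4 with Moderate IOP. Epha8 was the most abundant member of the family, and 2 of its Moderate IOP libraries lay below all others while the remaining one lay within the Control range. Next in its class was Epha7, with 8.76 ± 1.69 in Control. Among EphB receptors, which bind ephrin-B ligands, Ephb6 led with 25.0 ± 2.21 in Control, and its protein lacks kinase activity. Ephb1, the receptor that turns axons of the ventrotemporal retina to the same side of the brain, had 5.34 ± 1.01. Of the ephrins, Efna3 (17.7 ± 4.49), Efnb1 (12.8 ± 1.12) and Efnb3 (11.7 ± 0.971) were the most abundant in Control. Efnb1 and Efnb3 overlapped between replicates, and the lowest Efna3 library, at 14.1, lay above both.

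Transmembrane and membrane-anchored semaphorins of classes 4 to 7 were all above the threshold for a test and held 25.0% of the family sum. Sema6b, Sema6a and Sema4a stood at 19.0 ± 2.37, 18.6 ± 2.05 and 17.7 ± 0.96 in Control, levels that overlapped between replicates. Secreted class 3 semaphorins were far lower. Sema3f and Sema3a, which act on neuropilin-2 and neuropilin-1, had 1.84 ± 0.56 and 1.49 ± 0.629. On the receptor side, Plxna1 (8.14 ± 1.18) and Plxna2 (4.41 ± 1.09) led the plexins, the signalling subunits for semaphorins. Nrp1 and Nrp2, the neuropilins, had 3.67 ± 0.245 and 3.36 ± 0.79.

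Both partners of the Slit pathway were present. Slit2 (10.8 ± 1.77) was the main ligand and Robo2 (7.1 ± 0.583) the main receptor in Control, while Slit1 had 1.02 ± 0.351 and Robo1 had 1.79 ± 0.841. Robo4, known from endothelial cells, was at 0 in 7 libraries. Netrins were low throughout. Ntn1, the classical attractive cue at the optic nerve head, was above 0 in 2 libraries only, at 0.03 and 0.13, whereas Ntn4 and Ntn3 had 1.89 ± 1.47 and 1.06 ± 0.0799 in Control. Among netrin receptors Unc5a, a repulsive receptor, had 10.9 ± 2.46, above every netrin, while Dcc, the attractive receptor, had 1.41 ± 0.665. Few fragments lay behind many of these values, since 36 of the 55 tested members rested on fewer than 100 derived fragments in at least 1 library. Among genes of low level, replicates also differed by more than fragment counting gives (mean chi-square per gene 4.696 to 8.989 between replicate pairs). Depth was therefore not the only limit.

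**Figure D1:**
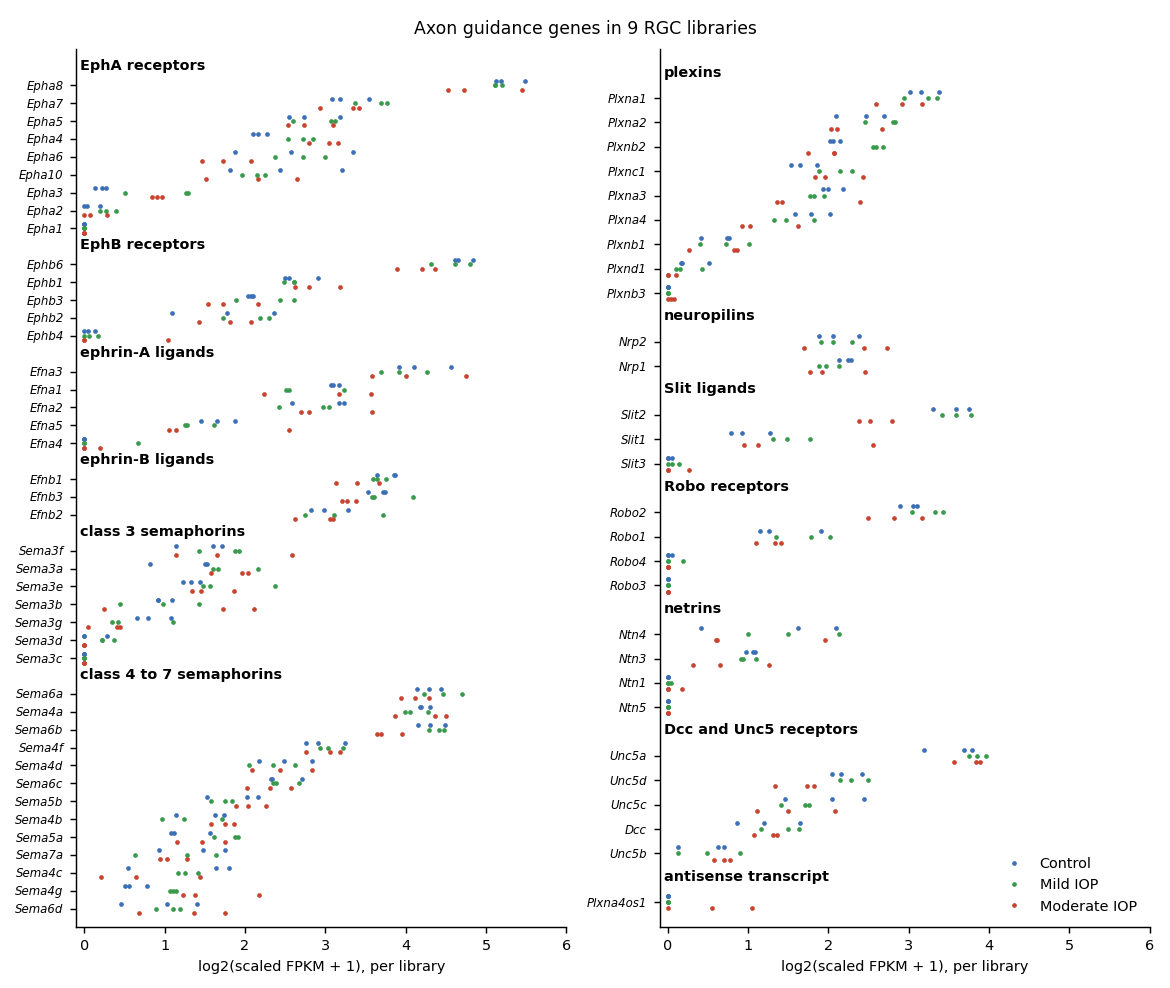
Levels of all 70 members on the log2(scaled FPKM + 1) scale (horizontal axis), with 1 point per library, grouped by role and ordered by mean level, for Control (blue), Mild IOP (green) and Moderate IOP (red). Epha8 lies farthest right, class 3 semaphorins and netrins lie near the left edge, and points of the 3 groups overlap for most members.

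Differences between groups were tested with limma over 13043 genes on log2(scaled FPKM + 1). A member was called when the false discovery rate (FDR), the Benjamini-Hochberg adjusted p-value over all genes tested, was below 0.1. Adding 1 before the logarithm understates the change of genes with low levels. The 3 comparisons share their libraries and are not independent of each other. In a bulk library, fewer cells of a type and less RNA per cell cannot be told apart.

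With Mild IOP, no guidance gene was higher or lower than in Control by this threshold. Limma called 0 of 55 tested members in either direction, where 0.00767% of all genes were called higher and 0.391% lower (0.399% in total). At an unadjusted p below 0.05, 3 members were higher and 0 lower, beside 3.15% and 7% of all genes. These 3 were Epha3, Epha4 and Plxnb2. Epha3 had a mean of 0.153 scaled FPKM in Control, below the level required for a test. It was tested only through its IOP libraries, which raised its mean over all libraries to 0.704. The median member differed by a log2 fold-change of 0.076 (all genes 0.006), and 56.4% of members were positive (all genes 50.9%).

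Under Moderate IOP, a single member was called against Control, the repellent ligand Slit2, which fell. Counts were 0 higher and 1 lower of 55, where 0.951% of all genes were called higher and 0.889% lower (1.84% in total). At an unadjusted p below 0.05, 3 members were higher and 5 lower, beside 8.03% and 7.26% of all genes, shares close to the background. Sema4g, Epha4 and Epha3 formed the first set, and Slit2, Sema6b, Ephb6, Unc5d and Epha6 the second. Here too, Epha3 was tested only through its IOP libraries. The median member had a log2 fold-change of −0.102 (all genes 0.004), and 40% of members were positive (all genes 50.5%).

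Set directly against Mild IOP, Moderate IOP had lower Slit2 and lower Sema6b, a transmembrane semaphorin. Of 55 members, 0 were called higher and 2 lower, where 7.03% of all genes were called higher and 3.12% lower (10.2% in total). At an unadjusted p below 0.05, 0 members were higher and 7 lower, beside 12.9% and 8.86% of all genes. The median member had a log2 fold-change of −0.144 (all genes −0.016), and 32.7% of members were positive (all genes 48.4%). The calls over all genes divided into 917 higher and 407 lower with scaled values and into 731 higher and 662 lower with FPKM as deposited.

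**Figure D2:**
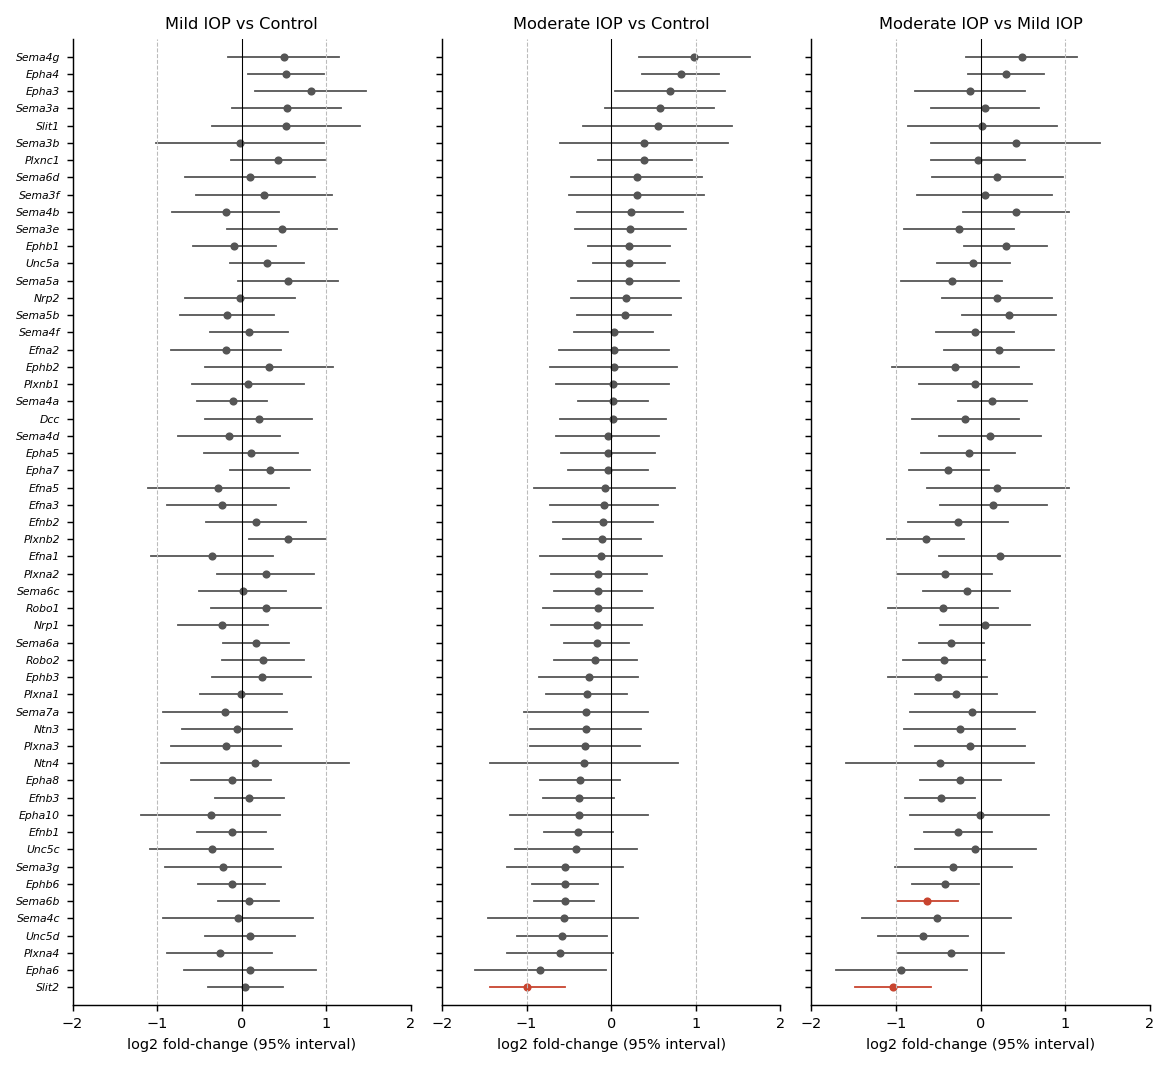
Log2 fold-change of the 55 tested members with its 95% interval from limma (horizontal axis) in each of the 3 comparisons, ordered by Moderate IOP vs Control, on the log2(scaled FPKM + 1) scale, with dashed lines 1 unit to either side of 0 and members of FDR below 0.1 in red. Slit2 is red in both comparisons with Moderate IOP, at −0.99 and −1.03, Sema6b is red only against Mild IOP, at −0.63, and no member is red in Mild IOP vs Control.

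Slit2 is secreted and repels RGC axons through Robo2, and it keeps them in their path at the optic chiasm. Its level was 8.9, 11.0 and 12.4 scaled FPKM in Control, 11.0, 12.7 and 9.67 with Mild IOP, and 5.92, 4.71 and 4.2 with Moderate IOP. All Moderate IOP libraries lay below every other library, while Control and Mild IOP overlapped. Against Control the mean fell by 54.1%, a log2 fold-change of −0.99 (SE 0.2, 95% interval −1.43 to −0.54, limma FDR = 0.0553). This call was lost when some libraries were left out, although the log2 fold-change stayed between −1.11 and −0.89. FDR was 0.105 without Control replicate 1, 0.154 without Control replicate 2, 0.111 without Control replicate 3, 0.105 without Mild IOP replicate 1, 0.14 without Moderate IOP replicate 2 and 0.126 without Moderate IOP replicate 3. With the replicate number as a block it was 0.119, and with the variance of the 2 groups alone 0.132. Against Mild IOP the mean fell by 55.5%, a log2 fold-change of −1.03 (SE 0.2, limma FDR = 0.0176), and Slit2 was called in 17 of 17 alternatives, with FDR between 0.0154 and 0.0819. From Control to Mild IOP the log2 fold-change was 0.04 (interval −0.4 to 0.49). The derived number of fragments ranged from 198 to 678 per library.

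Slit2 lies on chromosome 5 (mm10, chr5:47983155-48306282, plus strand), and a microRNA gene lies within its locus. Its start-site window is printed with those of Sema6b (chr17:56123085-56140343, minus strand) and Epha4 (chr1:77367185-77515088, minus strand), as these are the members called lower with Moderate IOP and the member with the lowest FDR among those higher. Each window comes from RefSeq (GRCm38.p6, the assembly of mm10) and runs from 250 bases before the annotated start through the first 50 bases of the transcript. RefSeq windows matched 59 of the 70 members. Capitals mark matches on either strand to TATAAA (the TATA box), CCAAT (the CAAT box), GGGCGG (the GC box) and TGACGTCA (the cAMP response element), and in Epha4 the capitals ATTGG are CCAAT on the other strand.
Slit2, chr5:47982905-47983204, plus strand: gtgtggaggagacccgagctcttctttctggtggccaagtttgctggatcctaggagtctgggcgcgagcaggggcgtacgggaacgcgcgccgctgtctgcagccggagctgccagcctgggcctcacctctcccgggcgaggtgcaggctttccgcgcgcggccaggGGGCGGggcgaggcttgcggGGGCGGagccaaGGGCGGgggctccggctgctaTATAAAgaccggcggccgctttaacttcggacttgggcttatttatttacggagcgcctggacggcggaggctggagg
Sema6b, chr17:56140294-56140593, minus strand: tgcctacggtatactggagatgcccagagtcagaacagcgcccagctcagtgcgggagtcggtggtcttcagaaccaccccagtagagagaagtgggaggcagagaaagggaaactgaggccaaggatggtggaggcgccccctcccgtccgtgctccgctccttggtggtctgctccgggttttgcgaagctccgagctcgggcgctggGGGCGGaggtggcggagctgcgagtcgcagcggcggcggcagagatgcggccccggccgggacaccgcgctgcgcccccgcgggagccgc
Epha4, chr1:77515039-77515338, minus strand: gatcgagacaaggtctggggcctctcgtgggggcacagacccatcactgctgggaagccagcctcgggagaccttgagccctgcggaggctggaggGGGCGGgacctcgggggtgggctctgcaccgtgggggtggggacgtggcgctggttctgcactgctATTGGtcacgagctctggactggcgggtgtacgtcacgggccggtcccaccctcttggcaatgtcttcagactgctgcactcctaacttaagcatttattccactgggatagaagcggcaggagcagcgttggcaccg

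The windows of Slit2 and Sema6b were rich in CpG dinucleotides, with 30 and 29, against a median of 7 over all 32851 windows, and that of Epha4 held 17. Slit2 had 3 GC boxes and a TATAAA close to its start, and Sema6b and Epha4 had 1 GC box each. Of all windows, 35.7% held GGGCGG, 13.6% TATAAA, 37.4% CCAAT and 1.79% TGACGTCA, which matched in none of the 3. These matches describe letters in the windows and not sites in use.

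Other members of the Slit pathway did not pass the test. Slit1 had 1.41, 0.73 and 0.9 scaled FPKM in Control, 1.8, 2.42 and 1.47 with Mild IOP, and 4.88, 1.17 and 0.94 with Moderate IOP. The Mild IOP libraries lay above Control without overlap, with a log2 fold-change of 0.52 (interval −0.35 to 1.4, limma FDR = 0.728). Moderate IOP replicate 1 was the highest library and the other 2 of its group overlapped Control, with a log2 fold-change of 0.55 (interval −0.33 to 1.43). Robo2, the receptor of Slit2 in RGCs, differed by −0.19 from Control with Moderate IOP (interval −0.67 to 0.3, limma FDR = 0.737) and by 0.25 with Mild IOP. For Robo1 these differences were −0.16 (interval −0.81 to 0.49) and 0.28. From Mild to Moderate IOP, Robo2 differed by −0.43 (interval −0.92 to 0.05) and Robo1 by −0.44 (interval −1.09 to 0.21), without a call.

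Sema6b is a transmembrane semaphorin that repels axons through plexin-A receptors, among them Plxna4. Its level was 21.5, 18.8 and 16.7 scaled FPKM in Control, 21.2, 20.4 and 18.5 with Mild IOP, and 11.9, 11.5 and 14.5 with Moderate IOP. The Moderate IOP libraries lay below all others, and Control and Mild IOP overlapped. From Mild to Moderate IOP the mean fell by 37.0%, a log2 fold-change of −0.63 (SE 0.16, 95% interval −0.99 to −0.27, limma FDR = 0.0478). Against Control the log2 fold-change was −0.55 (interval −0.91 to −0.2, limma FDR = 0.156), which did not pass. Over 17 alternatives the call against Mild IOP was made in 13. FDR was 0.156 without Mild IOP replicate 1, 0.162 without Mild IOP replicate 2, 0.116 without Moderate IOP replicate 1 and 0.126 without Moderate IOP replicate 2.

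Other abundant transmembrane semaphorins did not pass the test. Sema6a, a ligand of Plxna2 and Plxna4 that helps to sort the layers of the retina, had 18.6 ± 2.05 in Control, 21.2 ± 3.68 with Mild IOP and 16.4 ± 2.1 with Moderate IOP. Its log2 fold-change from Mild to Moderate IOP was −0.35 (interval −0.73 to 0.04). Sema4a differed from Control by 0.02 with Moderate IOP (interval −0.39 to 0.44).

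Sema4g, a class 4 semaphorin (chr19:44989344-45003395), was present at a low level. It had 0.46, 0.42 and 0.71 scaled FPKM in Control, 1.16, 1.09 and 1.21 with Mild IOP, and 3.49, 1.6 and 1.35 with Moderate IOP. Both IOP groups lay above Control without overlap, and Moderate IOP replicate 1 stood well above its fellow replicates. The log2 fold-change was 0.98 with Moderate IOP (SE 0.3, limma FDR = 0.165) and 0.5 with Mild IOP (limma FDR = 0.64), neither of which passed. With a pseudocount of 0.1 in place of 1 these were 1.74 and 1.02, also without a call. Between 14.7 and 75.1 derived fragments per library lay behind these values.

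Class 3 semaphorins stayed low in every group. Their sum was 5.47 to 7.315 scaled FPKM in the Control libraries, 8.91 to 10.16 with Mild IOP and 7.04 to 13.49 with Moderate IOP. For this sum, Mild IOP lay above Control without overlap, while Moderate IOP overlapped Control. The sum was not tested. Sema3a, a secreted ligand that collapses growth cones, had 1.83, 1.87 and 0.76 scaled FPKM in Control, 2.04, 2.16 and 3.46 with Mild IOP, and 3.1, 1.97 and 2.9 with Moderate IOP. Both IOP groups lay above Control, with log2 fold-changes of 0.53 and 0.58 and limma FDR of 0.607 and 0.38. Sema3f had 2.04, 2.27 and 1.21 in Control, 2.79, 1.7 and 2.67 with Mild IOP, and 4.99, 1.2 and 2.13 with Moderate IOP. Its log2 fold-changes were 0.26 and 0.3, with intervals from −0.54 to 1.06 and from −0.5 to 1.1. Over 17 alternatives the value for Moderate IOP ranged from −0.09 to 0.63, so its sign was not fixed.

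Plexins and neuropilins gave no call. Summed over the 9 plexins, levels were 24.4 ± 0.379 in Control, 27.5 ± 2.02 with Mild IOP and 21.1 ± 1.4 with Moderate IOP. Plxnb2 (chr15:89155546-89180788), a receptor for class 4 semaphorins, was chosen for mention after its values were seen. It had 3.15, 3.44 and 3.05 scaled FPKM in Control, 5.03, 5.43 and 4.9 with Mild IOP, and 3.21, 3.2 and 2.36 with Moderate IOP. Mild IOP lay above both other groups, with a log2 fold-change of 0.54 against Control (limma FDR = 0.393), and Moderate IOP differed from Mild IOP by −0.65 (limma FDR = 0.102), a difference that was called with unscaled FPKM (FDR 0.0749), upper-quartile scaling (FDR 0.0817) or a filter at a mean of 1 (FDR 0.0958). Plxna1 and Plxna2 differed from Control by −0.29 and −0.15 with Moderate IOP. For Nrp1 and Nrp2 these differences were −0.17 and 0.18. Plxna4os1, antisense to Plxna4, was above 0 only in Moderate IOP replicates 2 and 3, at 1.07 and 0.47, and the library kit does not mark strand, so its reads and those of Plxna4 cannot be told apart.

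Epha4 binds ephrins of both classes and is known to limit axon regrowth after injury. Its level was 3.82, 3.48 and 3.29 scaled FPKM in Control, 5.59, 4.8 and 6.2 with Mild IOP, and 7.95, 5.93 and 7.27 with Moderate IOP. Both IOP groups lay above Control without overlap, whereas Mild and Moderate IOP overlapped. The log2 fold-change was 0.82 with Moderate IOP (SE 0.2, 95% interval 0.37 to 1.27, limma FDR = 0.103), just short of the threshold, and the ratio of means was 2.0. It passed in 1 of 17 alternatives, the stricter filter of a mean of at least 1 (limma FDR = 0.0951), and FDR reached 0.217 when Control replicate 2 was left out. With Mild IOP the log2 fold-change was 0.52 (interval 0.07 to 0.97, limma FDR = 0.393), and between both IOP levels it was 0.3 (limma FDR = 0.429). The study lists Epha4 as changed on these same libraries, so these values are not independent evidence of its direction.

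Epha3 (chr16:63545218-63864157), a receptor of ephrin-A5, was the other Eph receptor above Control without overlap and by at least 1.5-fold with Moderate IOP. It had 0.2, 0.16 and 0.1 scaled FPKM in Control, 1.39, 0.42 and 1.45 with Mild IOP, and 0.95, 0.87 and 0.79 with Moderate IOP. Both IOP groups lay above Control, but between 1.99 and 40.0 derived fragments per library supported the values. Log2 fold-changes of 0.82 and 0.7 had limma FDR of 0.351 and 0.294. With a pseudocount of 0.1 in place of 1 they were 2.09 and 1.96, still without a call, so the size of the difference rests on the pseudocount. Epha6 (chr16:59653483-60605531), named after its values were seen, had 2.66, 4.95 and 9.11 in Control, 4.19, 5.57 and 6.95 with Mild IOP, and 3.2, 1.77 and 2.32 with Moderate IOP. Control spread widely for Epha6, and Moderate IOP lay below Mild IOP with a log2 fold-change of −0.94 (limma FDR = 0.152), called with the variance of the 2 groups compared (FDR 0.094) and without Control replicate 3 (FDR 0.0892).

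The more abundant Eph receptors and the ephrins gave no call. Ephb6 had 24.1, 27.5 and 23.4 scaled FPKM in Control, 23.5, 26.8 and 18.9 with Mild IOP, and 19.6, 17.5 and 13.9 with Moderate IOP. Its Moderate IOP libraries lay below Control, with a log2 fold-change of −0.54 (interval −0.94 to −0.15, limma FDR = 0.196). Efnb1 and Efnb3, ligands that also signal back into the cell that carries them, differed from Control by −0.39 and −0.38 with Moderate IOP (limma FDR = 0.346 and 0.365). Epha8 and Epha7 differed by −0.37 and −0.04, and Ephb1 by 0.21. Efna3 and Efna1 differed by −0.08 and −0.12, with wide spreads in Moderate IOP.

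Among netrin receptors, Unc5d (chr8:28646717-29219636), a repulsive receptor that also binds Flrt2, had 3.45, 3.14 and 4.36 scaled FPKM in Control, 3.44, 4.64 and 3.84 with Mild IOP, and 2.52, 1.52 and 2.32 with Moderate IOP. Moderate IOP lay below both other groups without overlap. The log2 fold-change was −0.58 against Control (interval −1.11 to −0.05, limma FDR = 0.287) and −0.68 against Mild IOP (limma FDR = 0.128), neither below the threshold. With FPKM as deposited, not scaled, Unc5d was called against Mild IOP (log2 fold-change −0.75, limma FDR = 0.0939). Unc5a, the most abundant of these receptors, differed from Control by 0.21 with Moderate IOP (interval −0.22 to 0.64) and by 0.3 with Mild IOP. Dcc differed by 0.02 with Moderate IOP (interval −0.61 to 0.65) and by 0.2 with Mild IOP. Ntn4 and Ntn3 differed from Control by −0.32 and −0.3 with Moderate IOP, and by 0.16 and −0.06 with Mild IOP. The SE of 0.5 for Ntn4 was the largest among the 55 tested members.

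Some members kept all replicates of an IOP group on a single side of Control with a fold-change of at least 1.5 on the fitted scale. With Mild IOP this was 1 member above (Epha3) and 0 below, beside 1.92% and 3.3% of all genes. With Moderate IOP it was 3 above (Sema4g, Epha4 and Epha3) and 1 below (Slit2), 5.45% and 1.82% of the members, beside 4.08% and 3.59% of all genes. In each comparison with Control, Epha3 was tested only through its IOP libraries. Its Control mean of 0.153 scaled FPKM lay below the level required for a test. Between Moderate and Mild IOP, 0 lay above and 5 below (Slit2, Sema6b, Epha6, Unc5d and Plxnb2), beside 7.8% and 4.74% of all genes.

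**Figure D3:**
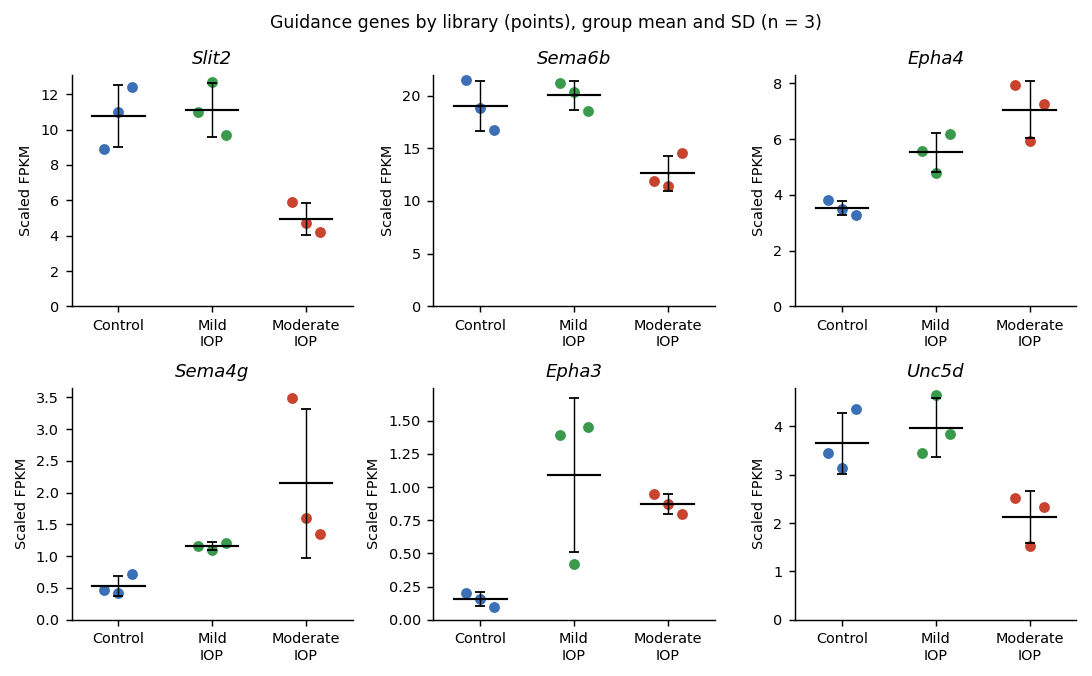
Scaled FPKM (vertical axis, from 0) of 6 members in each library (points), with the group mean (line) and SD (error bar, n = 3 technical replicates) for Control, Mild IOP and Moderate IOP. Slit2, Sema6b and Unc5d lie lower in every Moderate IOP library than in any other, while Sema4g, Epha4 and Epha3 lie lowest in Control.

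Other genes of the pathway were taken from lists chosen by known function. Among 20 tested coreceptors and modulators of guidance, 0 were called with Mild IOP and 0 with Moderate IOP against Control, in either direction, beside 0.399% and 1.84% of all genes. At an unadjusted p below 0.05 limma gave 0 with Mild IOP, beside 3.15% of all genes higher and 7% lower, and 1 higher and 4 lower with Moderate IOP, beside 8.03% and 7.26% of all genes. Cdon of this list was tested only through its Moderate IOP libraries. Its mean was 0.259 scaled FPKM in Control, 0.404 with Mild IOP and 1.256 with Moderate IOP. From Mild to Moderate IOP 0 were higher and 3 were lower, namely Dscam, Flrt2 and Flrt3, where 7.03% of all genes were called higher and 3.12% lower. Dscam, an adhesion molecule that also serves as a netrin receptor, had 13.4, 13.7 and 10.4 scaled FPKM with Mild IOP and 6.78, 6.98 and 8.76 with Moderate IOP, a log2 fold-change of −0.66 (limma FDR = 0.0762). Flrt2, which binds Unc5d, had 3.06, 4.56 and 4.0 with Mild IOP and 2.25, 0.855 and 1.55 with Moderate IOP, a log2 fold-change of −0.96 (limma FDR = 0.0614). For Flrt3, a partner of Robo1, the levels were 32.5, 36.5 and 42.0 with Mild IOP and 24.7, 25.7 and 29.2 with Moderate IOP, with a log2 fold-change of −0.46 (limma FDR = 0.0907). The Mild and Moderate IOP libraries did not overlap for any of these genes. Each call was lost with the replicate block (FDR 0.115 for Dscam, 0.101 for Flrt2 and 0.109 for Flrt3), with the variance of the 2 groups compared (FDR 0.101, 0.106 and 0.128) and without some libraries. Dscam reached an FDR of 0.101 without Control replicate 2, 0.212 and 0.254 without Mild IOP replicate 1 or 2, and 0.167 and 0.164 without Moderate IOP replicate 1 or 2. Flrt2 reached 0.222 and 0.13 without Mild IOP replicate 2 or 3, and 0.157 and 0.105 without Moderate IOP replicate 2 or 3. Flrt3 was called in 8 of 17 alternatives. With a library left out, its call held only without Control replicate 3 or Moderate IOP replicate 3, and FDR reached 0.229 at most.

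Cytoplasmic signalling genes downstream of the receptors were tested for 48 genes. With Mild IOP 0 were called, where 0.00767% of all genes were called higher and 0.391% lower. At an unadjusted p below 0.05, 0 were higher and 1 lower with Mild IOP, beside 3.15% and 7% of all genes. With Moderate IOP 0 were higher and 1 lower than in Control (5 higher and 8 lower at an unadjusted p below 0.05), where 0.951% of all genes were called higher and 0.889% lower (8.03% and 7.26% at an unadjusted p below 0.05). The called gene was Rgs3, which binds ephrin-B proteins and dampens G protein signalling. Rgs3 had 10.8, 6.23 and 9.04 scaled FPKM in Control, 9.63, 8.42 and 9.23 with Mild IOP, and 3.9, 3.51 and 4.43 with Moderate IOP, all below the rest. Its log2 fold-change was −0.94 against Control (limma FDR = 0.0829) and −1.03 against Mild IOP (limma FDR = 0.0231). Against Control the call held without Control replicate 2 (FDR 0.074) and was lost when any other library was left out (FDR up to 0.248), with the replicate block (FDR 0.116), with the variance of the 2 groups compared (FDR 0.183) and with no filter on low values (FDR 0.119), while the call against Mild IOP held in 17 of 17 alternatives.

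From Mild to Moderate IOP, 2 of these 48 genes were higher and 2 lower, where 7.03% of all genes were called higher and 3.12% lower (for the list, 5 higher and 10 lower at an unadjusted p below 0.05, beside 12.9% and 8.86% of all genes). Cfl1, the actin-severing protein cofilin, had 655.8, 612.6 and 532.7 scaled FPKM in Control, 508.9, 405.3 and 499.6 with Mild IOP, and 741.1, 764.6 and 688.9 with Moderate IOP. From Mild to Moderate IOP its log2 fold-change was 0.64 (limma FDR = 0.0165), called in 17 of 17 alternatives. Control lay between both IOP groups, and the log2 fold-change from Control was −0.35 with Mild IOP (limma FDR = 0.331) and 0.29 with Moderate IOP (limma FDR = 0.304). Dpysl2, the mediator of Sema3a signalling also known as CRMP2, rose by 0.6 on the log2 scale (limma FDR = 0.0444), a call lost without Mild IOP replicate 1 (FDR 0.14) or Moderate IOP replicate 1 (FDR 0.11). Rasa1, a Ras GTPase-activating protein recruited by EphB receptors, fell by 0.87 on the log2 scale together with Rgs3 (limma FDR = 0.0575). Mild IOP replicate 2 was high for Rasa1, at 22.3 beside 11.5 and 12.5, and without it the log2 fold-change was −0.58 (FDR 0.203). FDR for Rasa1 was 0.1 without Moderate IOP replicate 1, 0.137 without replicate 2 and 0.109 without replicate 3.

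Markers of RGCs and of other retinal cells also moved between the groups. The 14 RGC markers were present in every library, led by Sncg. Their summed level was 2017, 2183 and 2061 scaled FPKM in Control, 1875, 1522 and 1893 with Mild IOP, and 3296, 3048 and 3162 with Moderate IOP, so Moderate IOP lay above both other groups. With Moderate IOP, 3 of 14 were called higher than Control (Sncg, Nefl and Stmn2) and 0 lower, beside 0.951% of all genes called higher. The call of Nefl held in 17 of 17 alternatives. Those of Sncg and Stmn2 held in 9 each, and were lost with the replicate block (FDR 0.125 and 0.128), with no filter on low values, and without Control replicate 1 or 2, Mild IOP replicate 1 or any single Moderate IOP replicate (FDR up to 0.225 and 0.214). Of the 14, 12 had positive log2 fold-changes against Control, and Pou4f2 and Pou4f3 had −0.1 and −0.15. Against Mild IOP, 9 were higher and 0 lower, beside 7.03% of all genes called higher. Of these, Rbpms was not called without Mild IOP replicate 2 or Moderate IOP replicate 2, and Tubb3 not without Mild IOP replicate 2, Moderate IOP replicate 1 or 3, or with no filter. In the same comparison Slit2 and Sema6b were lower.

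Amacrine cells, the inhibitory interneurons that share the inner retina with RGCs, were a target of the panning that removes other cells, yet their 8 markers summed to 807.9, 786.6 and 826.7 scaled FPKM in Control. The sums were 868.1, 919.3 and 864.2 with Mild IOP, and 600.4, 576.3 and 617.4 with Moderate IOP, which lay below both other groups. Gad1, the most abundant, had 549.4, 586.8 and 420.8 on average in the 3 groups. Slc6a9, the glycine transporter, fell by 1.48 on the log2 scale with Moderate IOP against Control (limma FDR = 0.000623), and Gad2 fell by 0.7 (limma FDR = 0.0587), so 2 of 7 tested markers were lower and 0 higher, beside 0.889% of all genes called lower. Slc6a9 was called in 17 of 17 alternatives and Gad2 in 10, as its call was lost with the variance of the 2 groups compared (FDR 0.132) and without any single Control replicate, Mild IOP replicate 1 or Moderate IOP replicate 1 or 2 (FDR up to 0.162). Against Mild IOP 3 of 7 were lower (Gad1, Gad2 and Slc6a9) and 0 higher, beside 3.12% of all genes called lower. The other 4 tested markers had positive log2 fold-changes against Control that did not pass the test, 0.49 for Tfap2a, 0.29 for Slc32a1, 0.24 for Th and 0.06 for Tfap2b. The median over the list was 0.06 against Control and 0.12 against Mild IOP. No amacrine marker was at 0 in all libraries. The low sum with Moderate IOP thus came from Gad1, Slc6a9 and Gad2 and not from the list as a whole. The part of amacrine cells in the differences of Slit2, Sema6b and other guidance genes was not tested.

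The 7 rod markers summed to 530.7 ± 51.6 in Control, 379.8 ± 20.0 with Mild IOP and 374.8 ± 23.8 with Moderate IOP, led by Sag, with 1 of 7 lower in Mild IOP (Sag) and 2 of 7 lower in Moderate IOP (Sag and Pde6b) against Control, beside 0.391% and 0.889% of all genes called lower. Sag kept its call in 8 of 17 alternatives with Mild IOP and in 14 with Moderate IOP, where it was lost without Control replicate 1 or 2 or Moderate IOP replicate 1. With Mild IOP it was lost with the replicate block (FDR 0.153), with the variance of the 2 groups, with no filter, and without any single Control replicate, Mild IOP replicate 1 or 2, or Moderate IOP replicate 2. Pde6b kept its call in 9, losing it with the variance of the 2 groups, with no filter, and without Control replicate 1 or 2, Mild IOP replicate 1 or 3, or Moderate IOP replicate 2 or 3. Müller glia markers summed to 603.8 ± 13.6, 632.4 ± 25.0 and 620.2 ± 24.2, and 2 of 7 were higher with Moderate IOP than in Control (Rlbp1 and Apoe), beside 0.951% of all genes called higher. Both calls were lost without any single Control replicate or without Moderate IOP replicate 1 or 2, that of Apoe also without Mild IOP replicate 1 and with the replicate block (FDR 0.127), and that of Rlbp1 with no filter. Rlbp1 had 4.38, 4.64 and 4.37 in Control, 15.4, 7.61 and 14.2 with Mild IOP, and 21.8, 12.2 and 9.45 with Moderate IOP. Its Control libraries lay below all others, without a call for Mild IOP (limma FDR = 0.198). Of the 7 tested Müller glia markers, 5 had positive log2 fold-changes against Control at each IOP level. These were not the same 5, as Glul was positive only with Moderate IOP and Dkk3 only with Mild IOP. Dkk3 made up most of the Müller glia sum, at 484.9, 508.9 and 422.6 in the 3 groups. Glul had 30.0, 23.3 and 46.7 and was higher with Moderate than with Mild IOP (limma FDR = 0.0124), as was Apoe (not without Mild IOP replicate 2, FDR 0.11), beside 7.03% of all genes called higher. Vim had 2.05, 2.21 and 5.55 and was not called. In that comparison Slc1a3 and Dkk3 differed by −0.35 and −0.27 and Aqp4 by 0.17, without a call, and the list median was 0.19. Bipolar markers, led by Pcp2, summed to 71.7 ± 9.78, 65.8 ± 8.74 and 95.9 ± 6.09. Pcp2 alone had 47.1, 32.7 and 65.9 and was higher with Moderate than with Mild IOP (limma FDR = 0.0283), while Grm6 and Trpm1 differed by −0.64 and −0.32 without a call and the list median was −0.06. The endothelial sum, mostly Egfl7, was 21.9 ± 6.0, 17.8 ± 3.14 and 24.0 ± 3.53, with the defining genes Cdh5 and Cldn5 at 0 in all libraries. Cone markers (led by Pde6h) summed to 9.94, 11.95 and 13.0 on average, microglia and macrophage markers (C1qa) to 13.7, 12.95 and 16.2, pericyte markers (Rgs5) to 1.19, 6.13 and 4.03, and astrocyte markers (S100b) to 2.18, 1.09 and 3.89. Lens markers, led by Cryaa, summed to 253.0 ± 32.9 in Control, 1.75 ± 0.843 with Mild IOP and 0.976 ± 0.56 with Moderate IOP, so the Control pool stood apart from both IOP pools. At each IOP level 4 of 5 tested were lower than Control and 0 higher, beside 0.391% and 0.889% of all genes called lower. Bfsp1 did not follow, at 0.523, 0.561 and 0.924. Most of the Control sum was Cryaa, Crygs and Cryba1 (111.8, 73.4 and 62.5), which encode crystallins, described in the paper as found in RGCs. The part of the cell types listed here in the levels of Epha4, Epha3 and Sema4g, all lowest in Control, was not tested.

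**Figure D4:**
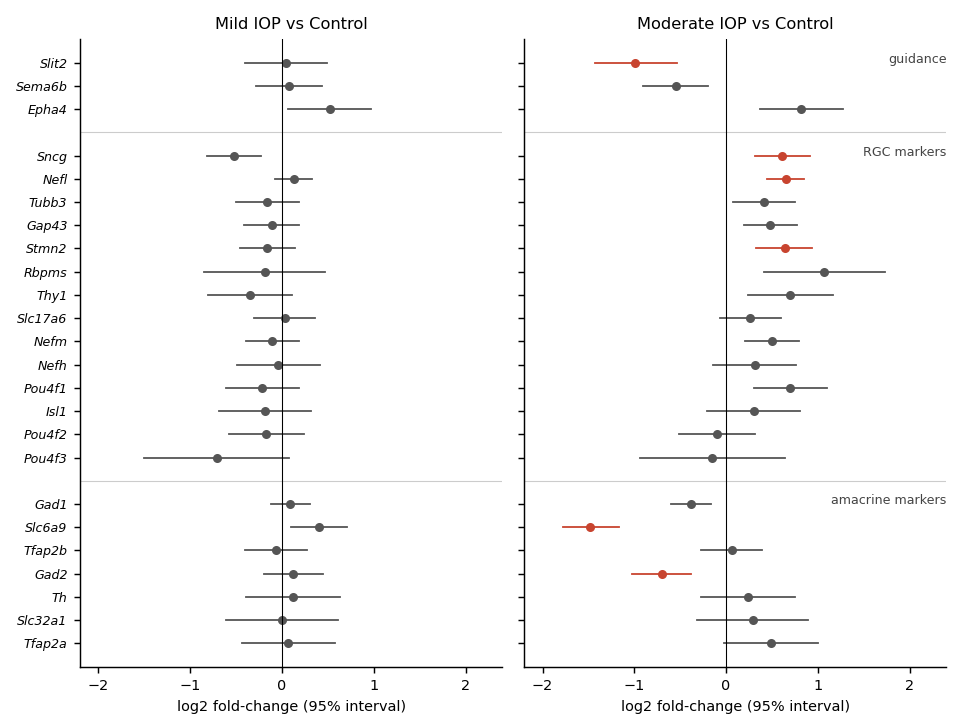
Log2 fold-change with 95% interval from limma (horizontal axis) of 3 guidance genes, the RGC markers and the amacrine markers, for Mild IOP vs Control (left) and Moderate IOP vs Control (right), with genes of FDR below 0.1 in red. With Moderate IOP, Slit2, Slc6a9 and Gad2 are lower and Sncg, Nefl and Stmn2 higher, and 4 of the 7 tested amacrine markers have positive values that did not pass the test.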

How the data were processed

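RNA sequencing of 9 libraries (3 groups of 3 technical replicates, grouped by their labels) was analysed. cDNA was primed on polyadenylated RNA (SMART-seq v4) and tagged with Nextera XT. Per the paper's methods the reads were aligned to mm10 with bowtie2 and quantified with cufflinks, and the submitters' processing notes name FastQC, Trimmomatic, TopHat2, Cufflinks and Cuffdiff. The authors deposited FPKM per gene locus for each library, with intervals but no counts, so a count test was not possible. Depth was derived from the interval widths over genes of at least 2000 nt and 100 fragments, and covers counting error only.

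Loci that share a symbol were added up as FPKM (23997 symbols), divided by median-of-ratios factors (0.983 to 1.058) and tested as log2(scaled FPKM + 1) with limma 3.58.1 in R 4.3.3, on group means over all 9 libraries with a trended variance, two-sided, for genes with a mean of at least 0.5 and no failed estimate (2 symbols had one). Calls used Benjamini-Hochberg FDR below 0.1. Python 3.11.15 with pandas 2.3.3 and matplotlib 3.10.9 made the other values and plots, and the test was checked on simulated data. Promoter windows came from RefSeq.

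Members were named if called in any comparison, among the 2 most abundant of their role, separated from Control by at least 1.5-fold without overlap, or listed by the study (Epha4), as were called genes of the other guidance lists and the most abundant marker of each cell type. Other markers and Dcc, Plxnb2 and Epha6 were named after their values were seen. Members and lists were chosen with earlier results of these data known. Alternatives covered scaling, pseudocount, filter, failed estimates, variance, a replicate block and leaving out each library. No sequencing batch is given in the sources used here. The authors' cuffdiff results and qPCR were not analysed here. A gene of the rod marker list is not reported here and was left out of its sums and counts.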

Additional observations from a re-analysis of the deposited data

How the results depend on the processing

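Over 36 guidance genes named by rule, 3 comparisons and 17 alternatives, 11 differences were called, and of their values under the alternatives 136 kept the call in the same direction, 51 lost it and 0 reversed it. Among all 1779 values, 3 gained a call, 9 moved in size, all with a pseudocount of 0.1, and 52 changed sign, each without a call in either setting. For 72 marker genes and genes named after their values were seen, 33 differences were called, with 498 values that kept the call, 63 that lost it and 0 that reversed it, while 23 others gained one and 78 moved in size. Calls over all genes for Mild IOP vs Control numbered 52, and 24 with no filter on low values, 25 with the replicate block, 12 with the variance of the 2 groups compared and from 15 to 183 when each library was left out. For Moderate IOP vs Control they numbered 240, and 135 with the replicate block, 140 with the variance of the 2 groups and 61 to 287 with a library left out. For Moderate vs Mild IOP they numbered 1324, and 519 to 1399 with a library left out. The next counts are of family members alone, without the other guidance lists. Members lower than Control with Moderate IOP went from 1 (Slit2) to 0 with the replicate block or with the variance of the 2 groups. They ranged from 0 to 1 with a library left out. Those higher went from 0 to 1 (Epha4) with a filter at a mean of 1. Members lower with Moderate than with Mild IOP went from 2 to 4 with unscaled FPKM and ranged from 1 to 3 with a library left out. Replicate numbers did not pair the libraries, as deviations of same-numbered libraries had a mean correlation of 0.012 (−0.005 to 0.044 over 9 pairs), and not every library correlated best with its own number. Under the block the members lower with Moderate than with Mild IOP still numbered 2. The block did end the calls of Dscam, Flrt2 and Flrt3 in that comparison (FDR 0.115, 0.101 and 0.109) and of Slit2 against Control (FDR 0.119). Depth limits members under 100 fragments, and each group is 1 pool.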

Other observations

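Inhibitors of axon growth of the Nogo pathway were looked at after their values had been seen. Rtn4, which encodes Nogo, had 26.0 ± 1.41 scaled FPKM in Control, 26.5 ± 5.21 with Mild IOP and 31.0 ± 1.5 with Moderate IOP (n = 3 technical replicates each), and its coreceptor Lingo1 had 35.4 ± 0.826, 31.7 ± 5.38 and 29.0 ± 7.16. Neither passed the test against Control, with log2 fold-changes for Moderate IOP by limma of 0.25 (95% interval −0.1 to 0.59) and −0.3 (interval −0.71 to 0.1). Rtn4r, the Nogo receptor, was low, at 3.9 in Control, 4.79 with Mild IOP and 3.4 with Moderate IOP.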
